A study of Mus musculus with 23 samples.

Results

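The comparison described here set the colonic epithelium of mice kept on a high-fat diet for life against that of mice kept on a low-fat diet. Its members were all samples whose labels give either diet, 6 HF and 8 LF samples of the 23 in the series, and none was chosen by a measured value. All were male C57BL/6 mice that started the diet at 6 weeks of age and stayed on it for 43 weeks. LF mice ate a diet with 10% fat and HF mice a diet with 60% fat, with lard as the source of fat in both. The samples of another regimen, switched from the high-fat to the low-fat diet, were not part of the comparison. Batch 1, as the labels name it, held 4 LF and 3 HF samples, and batch 2 held another 4 LF and 3 HF samples. The colonic epithelium was detached with EDTA, its total RNA was depleted of ribosomal RNA, and the libraries were sequenced as paired reads. The study states 5 mice per regimen, fewer than the samples here, so it is not established that each sample is a separate mouse, and the p-values measure only the spread between these samples.

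The colonic epithelium is a single layer that renews itself from stem cells at the crypt base. Its absorptive colonocytes burn butyrate and other fatty acids and move salt and water, goblet cells secrete mucus, and enteroendocrine cells release hormones into the blood. Among the routes from dietary lipid to transcription are nuclear receptors of the PPAR family, which switch on genes of fatty acid oxidation. The factors SREBP and ChREBP drive the synthesis of lipids. The comparison asked which genes and pathways differed between the diets in aged mice. The rapid response genes, histone genes, S-phase genes and subunits of respiratory complex I are left aside except for their counts.

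Gene counts per sample summed to between 29189922 and 65320947. Values below are CPM, counts scaled to a common library total, and 3 counts correspond to between 0.0459 and 0.103 CPM, a floor that covers counting error only. Library totals were larger in HF samples (median 46212082 against 36109325; two-sided exact permutation test within batches, p = 0.0278, adjusted p = 0.0735 over the 5 sample values so tested). HF replicate 3 of batch 1 stood apart, at 59.2 on the first principal component (39.1% of the variance), while the other 13 samples lay between -26.3 and 29.7. Markers that define epithelium were abundant and alike on both diets, with a summed level of 12080 to 14640 CPM in LF and 12930 to 14900 CPM in HF samples. None of these 8 markers was called, and their median difference was 0.04 on the log2 scale. In bulk RNA, fewer cells of a type and less RNA per cell cannot be told apart.

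Of 24917 loci in the file, 14096 passed edgeR's expression filter and were tested with batch as a covariate. A gene was called where edgeR's quasi-likelihood test, adjusted by Benjamini and Hochberg's method, gave a p under 0.05 and the fold change exceeded 1.2. By this rule 2470 genes were called, which is 17.5% of those tested. Of these, 1326 genes (9.41%) were higher and 1144 genes (8.12%) were lower in HF mice. With library totals alone in place of TMM scaling, the split was 1014 higher to 1290 lower, while the median over all genes moved by -0.03. Most differences were small. The median fold was 1.28 among genes called higher and 1.32 among those called lower, and 32 genes rose and 48 fell by more than 2-fold. The genes left aside made up 41 lower of 56 rapid response genes, 51 higher of 67 histone genes, 20 higher of 43 S-phase genes and 20 higher of 35 complex I subunits. Without LF replicate 2 or HF replicate 3 of batch 1 the S-phase count was 8, and it was 11 to 13 without LF replicate 1 of batch 1, LF replicate 3 of batch 2 or HF replicate 2 of batch 2. The complex I count was 6 without HF replicate 2 of batch 2, 7 and 8 without HF replicates 1 and 3 of batch 1, 10 to 13 without LF replicate 2 or 3 of batch 1 or LF replicate 1 or 3 of batch 2, and 9 after removal of the trend with exon length described below.

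All 2464 called genes that had a value in each batch alone had the same sign in both, and 1441 of them had an unadjusted p under 0.05 in each. The genes were called on these same samples, so both counts follow largely from that choice and are not a replication. Genes called higher had a median log2 difference of 0.40 in batch 1 and 0.30 in batch 2, and genes called lower of -0.44 and -0.39. Batch 2 fitted alone gave 1108 called genes of 14174 (7.82%), 546 higher and 562 lower. Batch 1 fitted alone gave 0 in edgeR, where 2811 genes had an unadjusted p under 0.05 and the smallest adjusted p was 0.0769, and DESeq2 called 449 there. The test of the difference between the batches called 0 genes in edgeR (smallest adjusted p = 0.859, 809 genes at an unadjusted p under 0.05) and 0 in DESeq2. The number called depended on single libraries. It fell to 1502 (741 higher, 761 lower) without HF replicate 3 of batch 1, to 1324 without HF replicate 2 of batch 2, to 1457 without LF replicate 2 of batch 1 and to 1541 without HF replicate 1 of batch 1, and genes called lower fell to 742 without LF replicate 1 of batch 2. Without a batch term 981 genes were called.

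**Figure D1:**
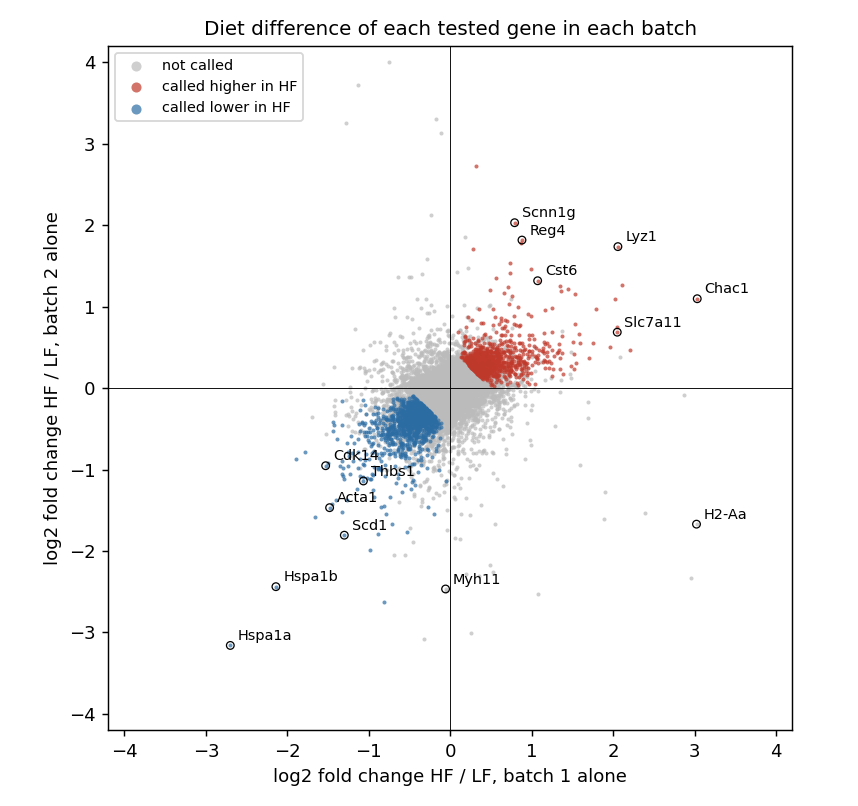
Log2 fold change of HF over LF for each of 13927 tested genes, fitted in batch 1 alone (x axis) and in batch 2 alone (y axis), with genes called higher or lower over both batches in color, the other genes in gray and 14 genes ringed and named. The called genes, which were chosen over both batches together, fall at the lower left and upper right, with Hspa1a at -2.70 and -3.16.

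Only a small part of the called genes separated the diets sample by sample. Every HF sample lay above every LF sample for 82 genes (0.582% of those tested) and below every LF sample for 95 genes (0.674%), and 145 of these 177 genes were called. The individual genes below come from 2 rules, the largest and the most certain differences at 1 CPM or more, and the 3 largest called members of each gene list. Members named beyond those 3 were chosen after their values were seen. Of 189 named genes that were called, 98 kept their call in every alternative that gave a value, usually 27 (other scalings, filters and tests, no batch term, and each library left out in turn).

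The largest fall was in the inducible HSP70 chaperones, which refold damaged proteins after stress. Hspa1a (chr17:34969359-34972156, minus strand, mm10) lay between 14.6 and 129 CPM in LF samples, with a median of 52.5, and between 2.23 and 9.94 CPM in HF samples, with a median of 7.96. Every HF sample was below every LF sample. Hspa1a fell by 2.93 ± 0.43 on the log2 scale (SE; adjusted p = 0.00353). Its neighbor Hspa1b (chr17:34956429-34959238, minus strand), which encodes nearly the same protein, spanned 37.5 to 254 CPM in LF and 9.40 to 33.3 CPM in HF samples, again without overlap, and fell by 2.28 ± 0.37 (log2, SE; adjusted p = 0.00499). How reads shared by the copies were assigned is not stated, so the division between them is uncertain. Their sum does not depend on that division, though it would change if shared reads were dropped or counted at both copies. The median of the sum was 170 CPM in LF and 34.2 CPM in HF samples, 4.97-fold lower. Both kept their call in 27 of 27 alternatives.

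The promoters of this pair are shown because both genes separated the diets without overlap. They are the 300 bases from 250 before to 50 after the annotated start (RefSeq, GRCm38.p6), at chr17:34972107-34972406 for Hspa1a and chr17:34959189-34959488 for Hspa1b, both on the minus strand. Capitals mark the letters GAANNTTC, the core of the heat shock element bound by HSF1, searched on both strands. The 2 sequences share 296 of their 300 bases, and each holds 1 match at the same place.
Hspa1a: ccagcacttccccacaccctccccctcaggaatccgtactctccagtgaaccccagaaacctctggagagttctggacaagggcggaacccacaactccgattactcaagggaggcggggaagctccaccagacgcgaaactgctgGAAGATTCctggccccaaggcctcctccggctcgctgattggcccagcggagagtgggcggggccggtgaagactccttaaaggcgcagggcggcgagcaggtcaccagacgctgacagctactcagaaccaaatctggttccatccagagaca
Hspa1b: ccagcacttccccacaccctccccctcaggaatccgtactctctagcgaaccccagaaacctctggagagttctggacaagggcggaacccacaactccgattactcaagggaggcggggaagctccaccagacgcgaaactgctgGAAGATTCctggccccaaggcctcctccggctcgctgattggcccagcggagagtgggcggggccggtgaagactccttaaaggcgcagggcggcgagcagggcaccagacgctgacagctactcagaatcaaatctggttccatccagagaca
The same letters stand in 2582 of 32851 promoters of this length (7.86%) and in 790 of the 13186 promoters of tested genes (5.99%). Of the 19 heat shock chaperone genes tested, 15 had a promoter in the table and 10 of these held a match. Dnajb1 was called lower and held no match. Hspe1 was called higher and held a match. Bag3, Chordc1, Fkbp4, Hspb1, Hspd1 and Hsph1 held a match too and were not called.

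The fall did not extend across the chaperones. Of 19 tested members of the heat shock list, 4 were lower and 1 was higher, with a median of -0.06, beside 8.12% lower and 9.41% higher over all genes. The other members called lower were the HSP40 cochaperones Dnajb1, which lay between 114 and 248 CPM in LF and between 70.9 and 165 CPM in HF samples (log2 difference -0.62 ± 0.12, SE; adjusted p = 0.00913), and Dnaja1 (log2 difference -0.46). The mitochondrial cochaperonin Hspe1 was higher (0.31). The constitutive chaperones Hspa8 (0.23, adjusted p = 0.136) and Hsp90aa1 (-0.12, adjusted p = 0.42) did not pass the test.

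Other genes that separated the diets without overlap had less in common. Acta1 (chr8:123891758-123894775), the actin of skeletal muscle, fell from 21.9 to 54.4 CPM in LF samples to 8.62 to 18 CPM in HF samples, by 1.47 ± 0.14 (log2, SE; adjusted p = 0.000149), and by nearly the same amount in batch 1 (-1.48) and batch 2 (-1.47). Of 10 tested smooth muscle markers 0 were called, and their median log2 difference was -0.91. Thbs1 (chr2:118111922-118127133), the secreted matrix protein thrombospondin-1, lay between 419 and 790 CPM in LF and between 229 and 396 CPM in HF samples and fell by 1.10 ± 0.15 (log2, SE; adjusted p = 0.00266). The cyclin-dependent kinase Cdk14 lay between 2.62 and 8.10 CPM in LF and between 1.02 and 2.11 CPM in HF samples, a log2 difference of -1.23 ± 0.25 (SE; adjusted p = 0.00998). The receptor for leukemia inhibitory factor Lifr (log2 difference -0.93) and the small GTPase Rasd1 (-0.84) were also lower in every HF sample than in any LF sample. So was Zfp36l1 (-0.58), whose protein destabilizes mRNAs with AU-rich elements. All of these kept their call in 27 of 27 alternatives.

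Further large falls had groups that overlapped. They were the potassium channel Kcnh1 (log2 difference -1.17), Fam71a (-1.16), the small nucleolar RNA Snora7a (-1.03), the sialyltransferase St8sia5 (median 8.45 CPM in LF and 4.28 CPM in HF samples), the imprinted transcription factor Plagl1 (-0.97), the chemokine Cxcl12 (-0.95) and the T-box factor Tbx6 (-0.92). Kcnh1 lost its call without a batch term, without LF replicate 1 of batch 2 and without HF replicate 2 of batch 2, and Fam71a and Plagl1 lost theirs without a batch term.

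**Figure D2:**
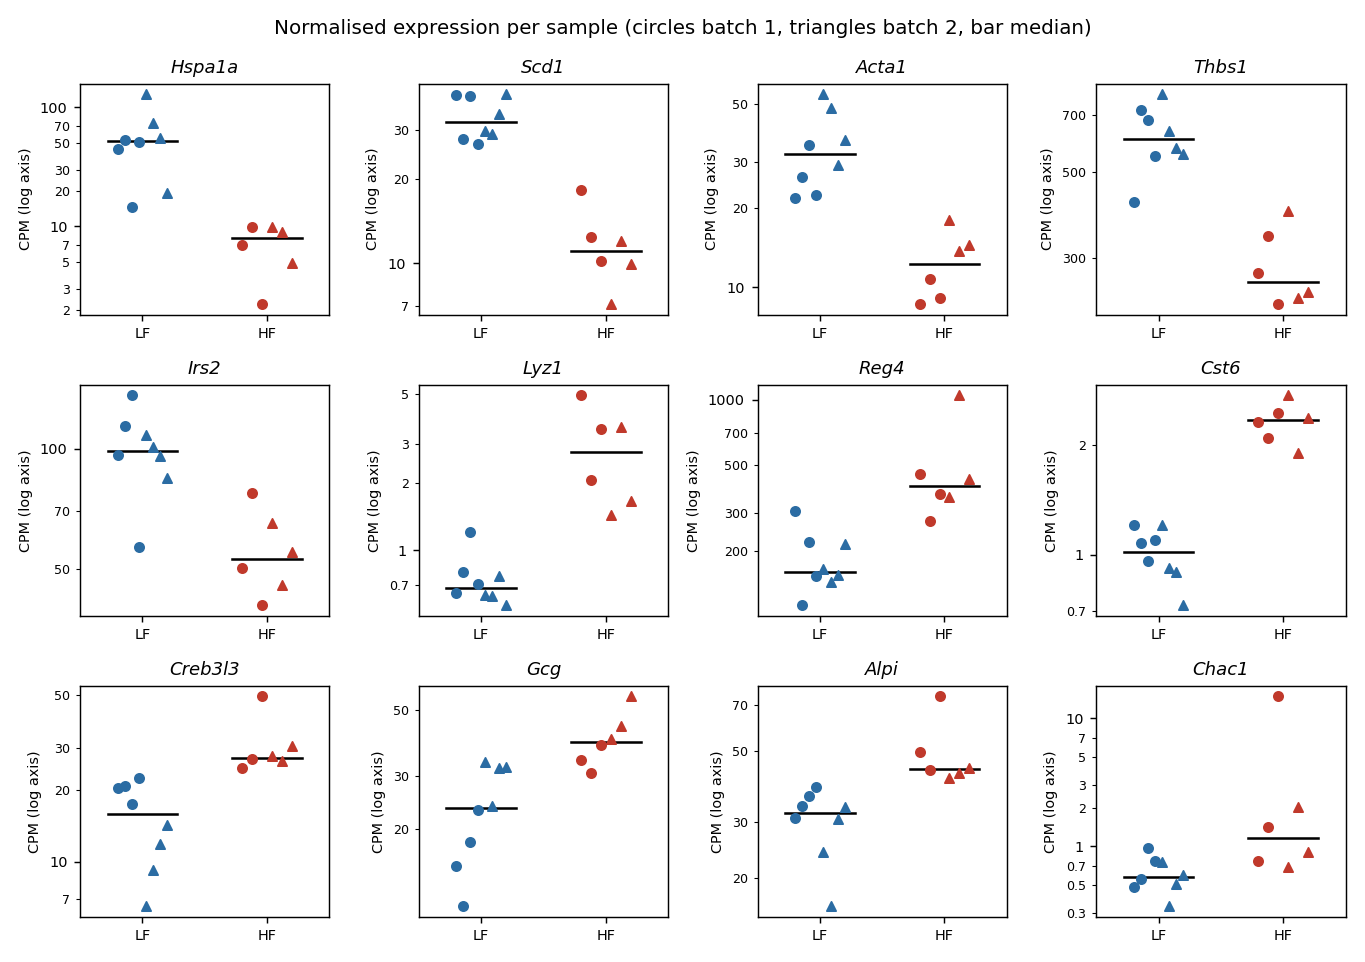
CPM per sample on a log axis for 12 genes, with 8 LF and 6 HF samples per panel, circles for batch 1, triangles for batch 2 and a bar at the median of each group. For Hspa1a, Scd1, Acta1, Thbs1, Lyz1, Cst6, Creb3l3 and Alpi the groups do not overlap, and for Chac1 HF replicate 3 of batch 1 stands alone at 14.8 CPM.

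Among genes called higher, the most certain was Cst6 (chr19:5344705-5349574, minus strand), which encodes the secreted protease inhibitor cystatin E/M. It lay between 0.727 and 1.21 CPM in LF samples and between 1.90 and 2.74 CPM in HF samples. Every HF sample was above every LF sample, in both batches. Cst6 rose by 1.2 ± 0.14 (log2, SE; adjusted p = 0.000607). Trf, which encodes the iron carrier transferrin, went from a median of 14.6 to 25.3 CPM (0.80 ± 0.11, log2 with SE; adjusted p = 0.00312), and the receptor that takes transferrin into cells, Tfrc, from 308 to 434 CPM (0.63 ± 0.14; adjusted p = 0.0125). Tfrc was the 1 called member of 12 tested iron genes. Ptgr1, a reductase of prostaglandins and lipid aldehydes (0.60), and the lipid esterase Aadac (0.50) also had small p, adjusted p = 0.0033 and 0.00307. These 5 genes kept their call in 27 of 27 alternatives.

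Several genes of fatty acid oxidation were higher. Of 25 tested, 9 were called higher (36.0%, beside 9.41% of all genes) and 0 lower, and the median log2 difference was 0.17. The members named by the rule were Crot (0.37), which moves medium chains out of peroxisomes, and Decr1 (0.36) and Eci2 (0.36), which are needed for unsaturated chains. The other members called higher were the acyl-CoA dehydrogenase Acadl (0.33), both subunits of the trifunctional protein, Hadha (0.28) and Hadhb (0.29), the thiolase Acaa2 (0.27), the electron carrier reductase Etfdh (0.27) and Cpt2 (0.26), the inner carnitine palmitoyltransferase. Cpt1a, the outer one and the usual point of control, lay between 432 and 519 CPM in LF and between 452 and 525 CPM in HF samples (log2 difference 0.02, adjusted p = 0.796). The count was 4 with library totals alone and 5 with upper-quartile scaling.

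Targets of PPAR receptors were called higher in 7 of 20 and lower in 0, with a median of 0.29, and the count was 2 without a batch term. The clearest was Creb3l3 (chr10:81084333-81098872, minus strand), a membrane-bound transcription factor of lipid metabolism. It lay between 6.49 and 22.5 CPM in LF samples, with a median of 15.9, and between 24.9 and 49.4 CPM in HF samples, with a median of 27.3. No HF sample overlapped with an LF sample. Creb3l3 rose by 1.08 ± 0.19 (log2, SE; adjusted p = 0.00584), by 0.73 in batch 1 and 1.41 in batch 2. The monoacylglycerol lipase Mgll rose by 0.64 ± 0.13 (adjusted p = 0.00998), from a median of 29.7 to 47.9 CPM, and the acyl-CoA thioesterase Acot1 by 0.63 (adjusted p = 0.032). Angptl4, an inhibitor of lipoprotein lipase (0.59), the pantetheinase Vnn1 (0.37) and Acadl (0.33) were the other called members apart from Fabp1. Fabp1 (1.02, adjusted p = 0.0349), the fatty acid binding protein of liver and small intestine, was under 1 CPM in every sample. It lay between 0.0695 and 0.834 CPM, the lowest value near the floor, and lost its call in 10 of 26 alternatives. Ppara itself, the receptor, was lower (log2 difference -0.36, adjusted p = 0.0125), and Pparg did not pass the test (0.04, adjusted p = 0.702). The receptors were looked up after the counts of their targets were seen.

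In the opposite direction, genes of fatty acid synthesis and desaturation were called lower in 6 of 19 and higher in 3, with a median of -0.04. Scd1 (chr19:44394450-44407709, minus strand), the stearoyl-CoA desaturase that makes oleate, lay between 26.7 and 40.4 CPM in LF samples and between 7.14 and 18.4 CPM in HF samples. The groups did not overlap in either batch. Scd1 fell by 1.54 ± 0.17 (log2, SE; adjusted p = 0.000384). Its paralogs Scd2 (-0.31) and Scd4 (-0.70) were called lower as well, Scd4 at 0.547 to 2.28 CPM and without a call in 13 of 27 alternatives. Both transcription factors of the pathway were lower, Srebf1 (-0.40, adjusted p = 0.00647), which encodes SREBP1, and Mlxipl (-0.36, adjusted p = 0.0213), which encodes ChREBP, and so was fatty acid synthase, Fasn (-0.35, adjusted p = 0.0157). The 3 members that were higher were malic enzyme Me1 (0.65), a source of NADPH, the elongase Elovl7 (0.41) and Acsl5 (0.29), which activates long chains. The count of lower genes was 3 without HF replicate 1 of batch 1.

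Genes of sterol synthesis were mostly not called. Of 25 tested, 0 were higher and 2 were lower, among them the regulator Srebf2 (-0.28, adjusted p = 0.0282). The median was 0.23 in batch 1 and -0.07 in batch 2. Sterol and lipoprotein transport was divided, with 4 of 24 higher and 4 lower. The sterol exporters Abca1 (-0.63, adjusted p = 0.0065), Abcg5 (-0.52) and Abcg8 (-0.46) and the apolipoprotein Apoe (-0.66) were lower, while the triglyceride enzymes Mogat2 (0.57) and Dgat2 (0.41), the HDL receptor Scarb1 (0.30) and Fabp1 were higher. Abca1 lay between 34.6 and 48.3 CPM in LF and between 21 and 35.6 CPM in HF samples. Of 8 tested genes of bile acid handling, Fabp6, the bile acid carrier of the ileum, was called (0.93, adjusted p = 0.0393), and it lost its call in 11 of 27 alternatives. Butyrate and ketone genes had 2 of 14 called, both higher, the acyl-CoA synthetase Acsm3 (0.45) and the thiolase Acat1 (0.38). Glycolysis and hypoxia genes had 1 higher, Pgk1 (0.38), and 1 lower, Vegfa (-0.36), of 23. Their median was -0.16 in batch 1 and 0.20 in batch 2. Without HF replicate 3 of batch 1, Pgk1 (adjusted p = 0.053) and Vegfa (adjusted p = 0.0981) lost their call.

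Several genes of insulin signaling were lower. Of 29 tested genes of insulin, IGF, mTOR and FoxO signaling, 6 were called lower (20.7%, beside 8.12% of all genes) and 0 higher. Their median was -0.22 (-0.10 in batch 1 and -0.25 in batch 2). Irs2 (chr8:10986964-11008430, minus strand), the docking protein through which the insulin receptor activates PI3 kinase, lay between 56.7 and 136 CPM in LF samples and between 40.7 and 77.3 CPM in HF samples. Medians were 98.8 and 53 CPM, and the groups overlapped only through the lowest LF sample. Irs2 fell by 0.83 ± 0.17 (log2, SE; adjusted p = 0.0103). The related docking protein Irs1 (-0.60, adjusted p = 0.0113), the transcription factor Foxo3 (-0.42, adjusted p = 0.0144), which insulin keeps out of the nucleus, the receptor Igf1r (-0.41), Foxo1 (-0.29) and the mTORC1 brake Tsc1 (-0.26) were the others. The count of lower genes rose to 10 without HF replicate 2 of batch 1, to 10 with upper-quartile scaling, to 11 with library totals alone and to 11 with a replicate block. It fell to 4 without LF replicate 2 of batch 1 and to 5 after removal of the trend with exon length described below, where the median was -0.15. Of the 29 genes, 15 lie in the longest of 5 equal groups of genes by exon length, where 12.2% of genes were called lower.

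**Figure D3:**
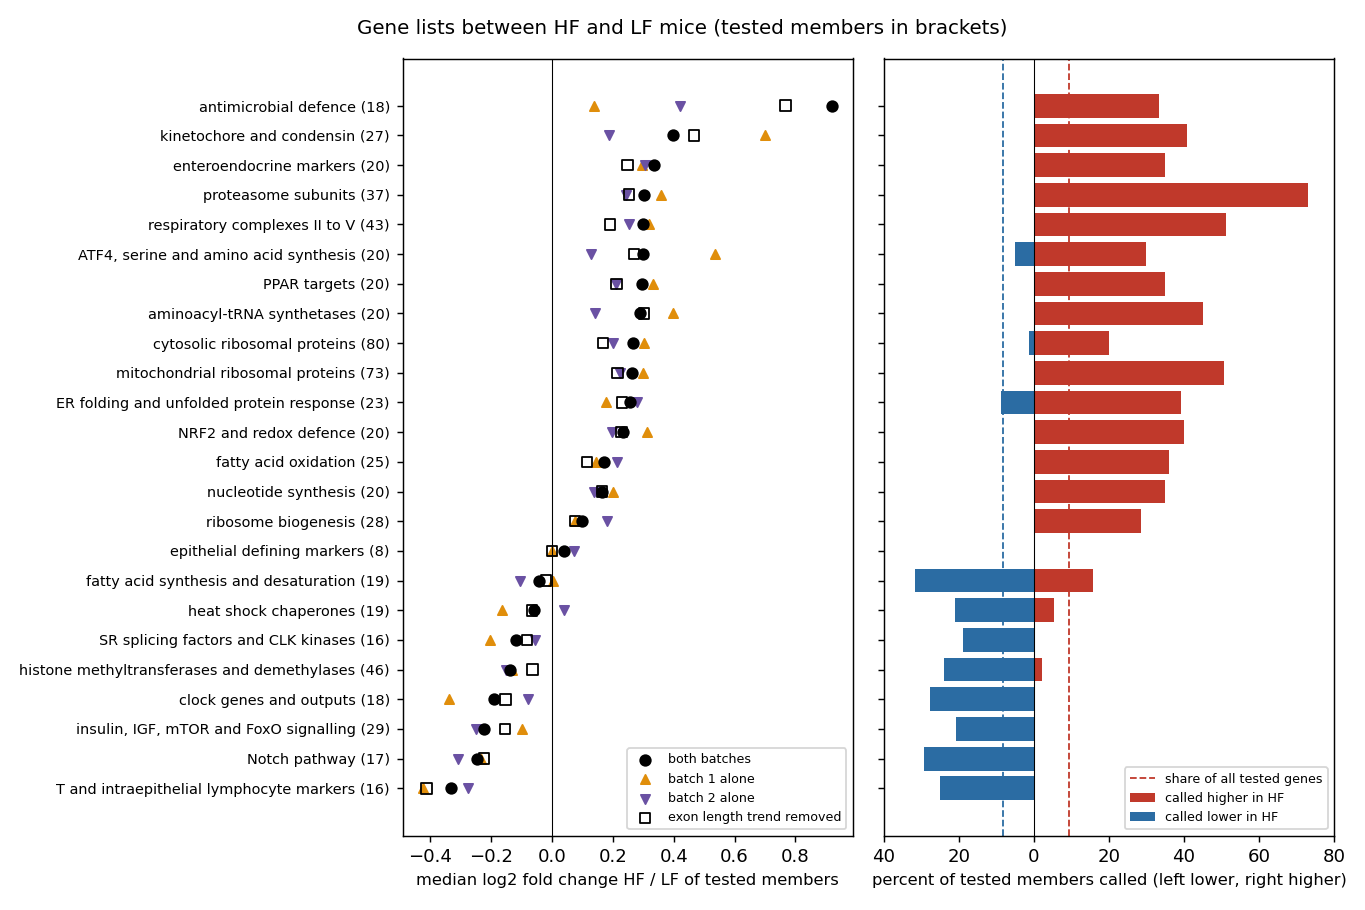
Left panel, median log2 fold change of HF over LF of the tested members of each gene list over both batches (circles), within each batch (triangles) and with the trend along exon length removed (squares), with the number tested beside the name. Right panel, percent of tested members called lower (left of 0) and higher (right of 0), with the percents over all tested genes, 8.12% and 9.41%, as dashed lines. Proteasome subunits, with 27 of 37 higher, reach farthest to the right.

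The genes with the largest rises included a group that ATF4 induces when amino acids are short. Of 20 tested genes of this list, 6 were higher and 1 was lower, with a median of 0.30, at 0.54 in batch 1 and 0.13 in batch 2. Chac1 (chr2:119351242-119354327), which degrades glutathione, lay between 0.338 and 0.960 CPM in LF samples and at 14.8 CPM in HF replicate 3 of batch 1. The other 5 HF samples lay between 0.690 and 2.01 CPM, and 2 of them were above every LF sample. The log2 difference of Chac1 was 2.18 ± 0.60 (SE; adjusted p = 0.0207), and without that library it was 0.90 (adjusted p = 0.0462). The cystine importer Slc7a11 went from 1.41 to 0.57 when the same library was left out, the serine enzyme Psat1 from 1.35 to 0.65, and the mitochondrial folate enzyme Mthfd2 from 1.26 to 0.52, each with an adjusted p under 0.05 in both fits. Slc7a11, Psat1 and Mthfd2 lost their call without LF replicate 2 of batch 1, and Slc7a11 and Mthfd2 also without LF replicate 3 of batch 1, without HF replicate 2 of batch 2 and in DESeq2. Aldh1l2, another mitochondrial folate enzyme outside the list, went from 1.17 to 0.71. Asns (0.99, asparagine synthetase) and Aldh18a1 (0.53, proline synthesis) were the other members called higher, while Ddit3, which encodes the stress factor CHOP, was lower (-0.32) and Atf4 itself did not pass the test (-0.05, adjusted p = 0.653). The count of higher members was 1 without LF replicate 2 of batch 1, 2 without HF replicate 2 of batch 2 and 10 without HF replicate 2 of batch 1.

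Promoters of 3 of these genes are shown because they were called higher and hold the letters TGATGNAA. These letters, a core of the element that ATF4 binds together with C/EBP proteins, were searched on both strands and are marked in capitals. The sequences are RefSeq's for GRCm38.p6, at chr2:119350992-119351291 (plus strand) for Chac1, chr3:50443564-50443863 (minus strand) for Slc7a11 and chr6:7693160-7693459 (minus strand) for Asns.
Chac1: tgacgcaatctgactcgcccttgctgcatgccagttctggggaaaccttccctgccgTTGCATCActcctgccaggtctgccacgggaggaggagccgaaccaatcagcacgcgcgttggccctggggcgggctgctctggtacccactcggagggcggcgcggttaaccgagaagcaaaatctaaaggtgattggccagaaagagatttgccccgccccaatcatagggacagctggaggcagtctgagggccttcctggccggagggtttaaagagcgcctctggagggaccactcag
Slc7a11: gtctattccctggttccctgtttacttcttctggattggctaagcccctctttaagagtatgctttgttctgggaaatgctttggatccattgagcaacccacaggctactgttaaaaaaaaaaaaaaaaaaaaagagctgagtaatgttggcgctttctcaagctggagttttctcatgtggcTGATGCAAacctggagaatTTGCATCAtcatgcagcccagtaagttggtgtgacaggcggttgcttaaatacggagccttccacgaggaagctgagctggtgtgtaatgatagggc
Asns: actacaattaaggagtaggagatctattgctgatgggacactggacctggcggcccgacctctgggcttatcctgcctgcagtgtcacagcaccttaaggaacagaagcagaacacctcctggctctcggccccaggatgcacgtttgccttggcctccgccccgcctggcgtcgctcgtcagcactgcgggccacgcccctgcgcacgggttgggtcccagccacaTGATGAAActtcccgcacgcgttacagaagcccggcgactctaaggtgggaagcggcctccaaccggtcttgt
Chac1 and Asns hold 1 match and Slc7a11 holds 2. The letters stand in 1304 of 32851 promoters (3.97%) and in 292 of the 13186 promoters of tested genes (2.21%). Of the 20 listed genes, 18 had a promoter in the table and 5 of these held a match. Pycr1 and Trib3 held a match too and were not called. Psat1, Mthfd2 and Aldh18a1 were called higher and held no match.

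Other large rises rested on the same library in part. Without HF replicate 3 of batch 1 the surface protein Ly6c1 went from 1.69 to 0.85 (adjusted p = 0.15), the retinal dehydrogenase Aldh1a3 lost its call at an adjusted p of 0.077, and so did the amino acid transporter Slc6a19 at an adjusted p of 0.0625. The protease inhibitor Slpi was at 9.04 CPM in that library and between 1.21 and 2.99 CPM in the other HF samples. Its log2 difference went from 1.36 to 0.78 (adjusted p = 0.09). AI747448 had a log2 difference of 1.13 with all samples and also lost its call without that library.

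Aminoacyl-tRNA synthetases, which charge tRNAs with amino acids, were called higher in 9 of 20 and lower in 0, with a median of 0.29 (0.40 in batch 1 and 0.14 in batch 2). Rars, for arginine, lay between 66.0 and 84.1 CPM in LF and between 80.1 and 127 CPM in HF samples and rose by 0.42 ± 0.09 (log2, SE; adjusted p = 0.0106). Nars, for asparagine (0.43), and Farsb, for phenylalanine (0.39), were the other leading members. The count was 4 without HF replicate 3 of batch 1 and 5 without LF replicate 2 of batch 1, without HF replicate 2 of batch 2 or in limma's voom fit. Nucleotide synthesis had 7 of 20 higher and 0 lower, led by the kinases Nme1 (0.61) and Tk1 (0.52). That count was 3 or 4 in 6 of the 14 fits that left out 1 library and 3 without a batch term. Ribosome biogenesis had 8 of 28 higher and 0 lower, and its leading members Nop10 (0.64) and Nhp2 (0.51), both of the box H/ACA particle, and the assembly factor Pno1 (0.47) kept their call in every alternative. The count was 4 without HF replicate 3 of batch 1.

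Genes of the proteasome, which degrades ubiquitin-tagged proteins, had a larger share of called members than any other list of 2 or more genes apart from the histone and rapid response genes. The lists were chosen with earlier results of these data known, so this rank depends on that choice. Of 37 tested subunits, 27 were higher (73.0%, beside 9.41% of all genes) and 0 were lower, and their median log2 difference was 0.30. Psma2, of the core particle, lay between 64.2 and 102 CPM in LF and between 89.1 and 137 CPM in HF samples. Psma2 rose by 0.48 ± 0.10 (log2, SE; adjusted p = 0.0112). Psmd14, the deubiquitinase of the lid, rose by 0.47 ± 0.10 (adjusted p = 0.0106) and Psma3 by 0.41 ± 0.09 (adjusted p = 0.0117). The list had 14 higher members without HF replicate 3 of batch 1, 10 without a batch term and 16 after removal of the trend with exon length described below.

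Genes of mitochondrial protein synthesis and respiration followed the same direction. Of 73 mitochondrial ribosomal proteins, 37 were higher and 0 lower, with a median of 0.26, and in fits that left out 1 library the count ranged from 18 (without HF replicate 2 of batch 2) to 48. It was also 20 to 22 without LF replicate 2 or 3 of batch 1 and without HF replicate 1 or 3 of batch 1, and 16 without a batch term. Mrpl35 (0.48), Mrps14 (0.45) and Mrps28 (0.44) led the list. Of 43 subunits of respiratory complexes II to V, 22 were higher and 0 lower, with a median of 0.30, led by Atp5g1 (0.50), of the proton-turning ring of ATP synthase, Uqcrq (0.45), of complex III, and Cox7b (0.43), of complex IV. Their count lay between 9 (without HF replicate 3 of batch 1) and 29, was 10 to 14 without LF replicate 2 of batch 1, LF replicate 1 of batch 2, HF replicate 1 of batch 1 or HF replicate 2 of batch 2, and was 7 without a batch term and 8 after removal of the length trend. Cytosolic ribosomal proteins had 16 of 80 higher and 1 lower, with a median of 0.27. That count ranged from 0 without HF replicate 2 of batch 2 to 54 without HF replicate 2 of batch 1, and 12 of the 14 fits without 1 library moved it by more than 1.5 times, and it was 3 after removal of the length trend. Rps27 was the lower member (-0.70, adjusted p = 0.00998, every HF sample below every LF sample), and ribosomal protein genes share reads with many copies, so their values are uncertain.

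Summed exon length moved with these lists. Over the 95.1% of tested genes with a length in the GENCODE M21 annotation, the median log2 difference was 0.10 in the shortest of 5 equal groups of genes (up to 2329 bases of exon), 0.05, -0.00 and -0.03 in the next, and -0.08 in the longest (from 7444 bases). The share called higher went from 17.9% in the shortest to 3.06% in the longest, and the share called lower from 5.78% to 12.2%. The trend was present in batch 1 (0.09 to -0.06) and in batch 2 (0.11 to -0.11). Per sample, the shortest minus the longest group, in log2 CPM relative to the LF mean, lay between 0.02 and 0.36 in HF and between -0.20 and 0.17 in LF samples. Median exon length was 1794 bases for subunits of complexes II to V, 1806 for cytosolic and 2255 for mitochondrial ribosomal proteins and 2820 for the proteasome. With each sample's own trend along exon length removed, 1923 genes were called (1015 higher, 908 lower), of which 1650 were among the 2470. The source of the trend was not tested.

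**Figure D4:**
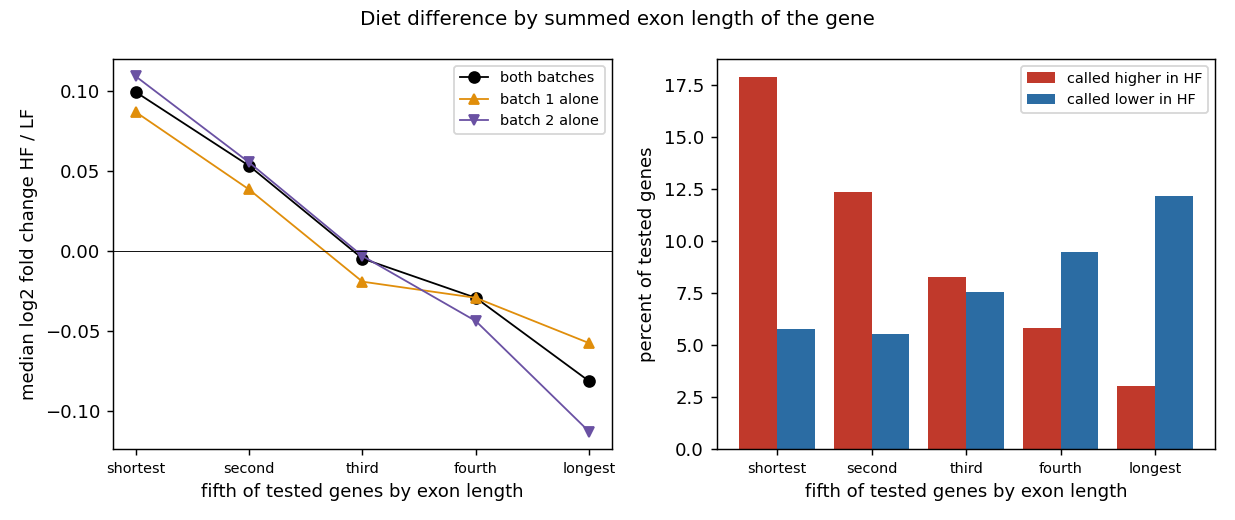
Left panel, median log2 fold change of HF over LF in 5 equal groups of the tested genes, ordered by summed exon length, for both batches and each batch alone. Right panel, percent of each group called higher and lower over both batches. The median falls from 0.10 to -0.08 and the percent called higher from 17.9 to 3.06.

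Mitosis and protein folding also contained many higher genes. Kinetochore and condensin genes, which attach and compact chromosomes, were called higher in 11 of 27 and lower in 0, with a median of 0.40 (0.70 in batch 1 and 0.19 in batch 2). The NDC80 complex led, with Nuf2 (0.80), Spc25 (0.72) and Spc24 (0.71). Nuf2 lay between 2.51 and 7.86 CPM in LF and between 5.06 and 11.9 CPM in HF samples. The count was 2 without a batch term, and between 6 (without HF replicate 3 of batch 1) and 17 (without LF replicate 3 of batch 1) when 1 library was left out; without LF replicate 2 of batch 1 and without HF replicate 2 of batch 2 it was 7. Fanconi and recombination genes had 3 of 24 higher, Fancb, Nbn and Fancl, and 0 without HF replicate 3 of batch 1. Of 19 p53 targets, 4 were lower, Gdf15 (-0.84), Bbc3 (-0.51), Tnfrsf10b (-0.37) and Pmaip1 (-0.33), the last 3 of which promote cell death, and Ccng1 was higher (0.37). The p53 target Cdkn1a, an inhibitor of the cell cycle, did not pass the test (-0.03, adjusted p = 0.827).

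In the endoplasmic reticulum, 9 of 23 folding and unfolded protein response genes were higher and 2 lower, with a median of 0.26. They included the translocon subunit Sec61b (0.53), the disulfide isomerase Pdia6 (0.46) and the secreted factor Manf (0.42). The members called lower were Syvn1 (-0.31) and Ern2 (-0.32), the stress sensor of mucus-secreting cells. Without LF replicate 4 of batch 1, and with a replicate block, 14 were higher. NRF2 and redox genes had 8 of 20 higher and 0 lower, with a median of 0.23. The glutathione peroxidase of the gut, Gpx2, went from a median of 141 to 210 CPM (0.72 ± 0.14, log2 with SE; adjusted p = 0.00934) and kept its call in 27 of 27 alternatives, and the transferase Gsta3 (0.54) lost its call in 9. The count of this list fell to between 2 and 5 in 9 of the 14 fits without 1 library and to 4 without a batch term.

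Several genes of defense proteins were higher. Of 18 tested antimicrobial genes, 6 were higher and 0 were lower, and the median log2 difference was 0.92, although it was 0.14 in batch 1 and 0.42 in batch 2 fitted alone. The median fell to 0.37 without HF replicate 2 of batch 2 and to 0.55 with a replicate block. Lyz1 (chr10:117287795-117292868, minus strand), the lysozyme of Paneth cells, lay between 0.568 and 1.21 CPM in LF samples and between 1.44 and 4.94 CPM in HF samples. Every HF sample was above every LF sample. Lyz1 rose by 1.91 ± 0.24 (log2, SE; adjusted p = 0.00185), by 2.06 in batch 1 and 1.74 in batch 2. The neighboring gene for the lysozyme of macrophages, Lyz2, had a log2 difference of -0.34 (adjusted p = 0.34). Lyz2 was looked up after the value of Lyz1 was seen.

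Reg4 (chr3:98222156-98236748), a secreted lectin of the colon, lay between 113 and 308 CPM in LF samples and between 277 and 1046 CPM in HF samples. The highest value was HF replicate 2 of batch 2, and the other HF samples reached 456 CPM. Reg4 rose by 1.37 ± 0.27 (log2, SE; adjusted p = 0.00998). Pla2g2a, a secreted phospholipase that kills bacteria and that C57BL/6 mice are known to carry in a defective form, rose by 1.15 ± 0.25 (adjusted p = 0.0117), with 0.695 to 1.56 CPM in LF and 1.85 to 5.34 CPM in HF samples. The oxidase maturation factor Duoxa2 (0.69), serum amyloid Saa3 (0.53) and Slpi were the remaining members called higher. The antibacterial lectins Reg3b (1.47, adjusted p = 0.172) and Reg3g (1.23, adjusted p = 0.0942), the goblet cell product Retnlb (1.66, adjusted p = 0.114) and Ang4 (1.66, adjusted p = 0.288) had large differences but did not pass the test. Retnlb went from -0.12 in batch 1 to 3.14 in batch 2, and Reg3b from 2.87 to -0.09.

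Several genes of gut hormones were higher, while goblet cell genes were divided. Of 20 enteroendocrine markers, 7 were higher and 0 lower, with a median of 0.33. Gcg (chr2:62474530-62483653, minus strand), the precursor of GLP-1, lay between 11 and 33.5 CPM in LF samples, with a median of 23.4, and between 30.8 and 55.6 CPM in HF samples, with a median of 39.1. The groups overlapped in a narrow range only. Gcg rose by 0.82 ± 0.14 (log2, SE; adjusted p = 0.00584). Insl5, a hormone of the same colonic L cells, rose by 0.74 ± 0.13 (adjusted p = 0.008) and Pyy, peptide YY, by 0.44 ± 0.08 (adjusted p = 0.00677). Nts (0.66), Scg3 (0.66), Cck (0.55) and the progenitor factor Neurog3 (0.82), the last without a call in 17 of 26 alternatives, completed the 7. The granin Chga, common to these cells, did not pass the test (0.02, adjusted p = 0.917). The summed level of the 20 markers was 225 to 474 CPM in LF and 305 to 524 CPM in HF samples. The count was 4 without HF replicate 1 of batch 1, 4 without HF replicate 2 of batch 2, 2 without a batch term and 4 after removal of the exon length trend, where Pyy lost its call (0.24, adjusted p = 0.0545). Of the 20 markers, 10 lie in the shortest of the 5 groups by exon length.

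Goblet cell markers were called higher in 4 of 14 (28.6%, beside 9.41% of all genes) and lower in 1, with a median of 0.13. Of the 13 markers with a length, 8 lie in the shortest of the 5 groups by exon length, where 17.9% of genes were called higher. Spink4, a secreted peptide, lay between 151 and 350 CPM in LF and between 337 and 868 CPM in HF samples and rose by 0.96 ± 0.18 (log2, SE; adjusted p = 0.00934). The isomerase Agr2, needed for folding of mucins, rose by 0.59 ± 0.10 (adjusted p = 0.0065). The kallikrein Klk1 (0.46) and the trefoil peptide Tff3 (0.42) were higher too, and Ern2 was the lower member. Tff3 lost its call after removal of the exon length trend (0.26, adjusted p = 0.0876). Muc2, the main mucin, did not pass the test (-0.30, adjusted p = 0.185). Tuft cell markers had 2 of 11 higher, the signaling regulator Rgs13 (0.56) and gustducin, Gnat3 (0.43). Gnat3 also lost its call after removal of that trend (0.30, adjusted p = 0.118). Enzymes that add sugars to mucins and to cell surfaces had 6 of 57 higher, near the share of all genes, with B3galt2 first (0.94 ± 0.14, log2 with SE; adjusted p = 0.00453). Only 1 of the 57 was lower, a smaller share than the 8.12% over all genes.

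Absorptive genes changed little. Of 19 brush border and colonocyte genes, 2 were higher and 0 lower, the alkaline phosphatase Alpi and the peptide uroguanylin, Guca2b (0.53, adjusted p = 0.00499). Alpi lay between 16.3 and 38.5 CPM in LF and between 41.3 and 74.3 CPM in HF samples, with no overlap, and rose by 0.70 ± 0.14 (log2, SE; adjusted p = 0.00998). Among 21 genes of ion and water transport, Scnn1g, the gamma subunit of the epithelial sodium channel, was higher and the sulfate transporter Slc26a2 (-0.30) was lower. Scnn1g lay between 2.91 and 16.5 CPM in LF and between 7.69 and 39.2 CPM in HF samples, a rise of 1.42 ± 0.39 (log2, SE; adjusted p = 0.0209) that was 0.79 in batch 1 and 2.03 in batch 2. Sgk1, the kinase through which aldosterone stabilizes this channel, rose by 0.67 (adjusted p = 0.0318). Scnn1g and Sgk1, with Per1 lower, were the called members of 11 steroid response genes, and both lost their call without HF replicate 3 of batch 1. Tight junction genes had 3 of 16 higher, Cldn4 (0.64), Cldn2 (0.46) and Cldn12 (0.26), and Cldn23 lower (-0.42, adjusted p = 0.00414).

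**Figure D5:**
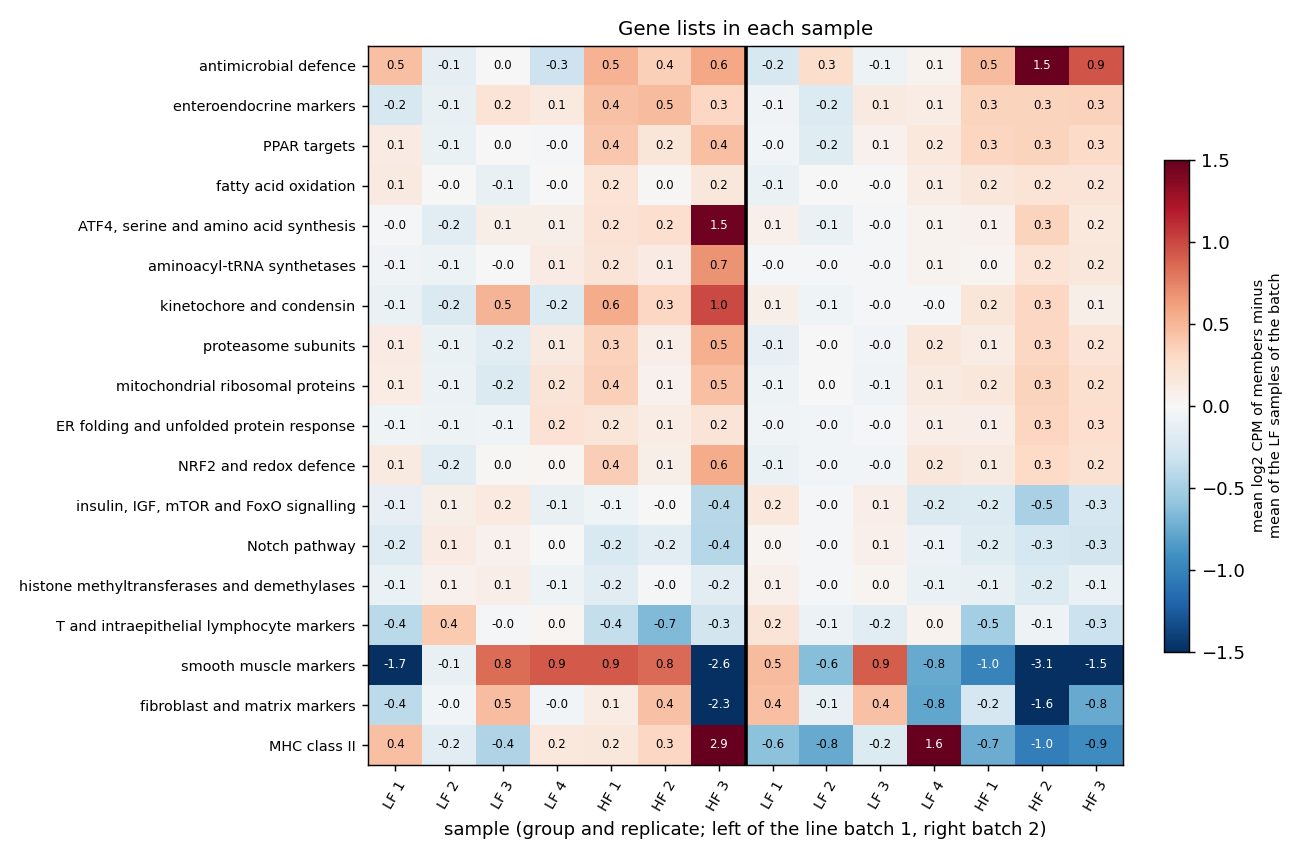
Heat map with a row for each of 18 gene lists and a column for each of the 14 samples, batch 1 left and batch 2 right of the black line. Color and printed number give the mean log2 CPM of the tested members minus the mean of the LF samples of the batch, with red above and blue below. For the proteasome the HF samples lie between 0.09 and 0.54 and the LF samples between -0.16 and 0.17, and HF replicate 3 of batch 1 is at 1.46 for the ATF4 list.

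In the lists of regulators of cell fate and chromatin that follow, more members were called lower than higher, beside 8.12% lower and 9.41% higher over all genes. In the Notch pathway, which sets absorptive against secretory fate, 5 of 17 genes were lower and 0 higher, with a median of -0.25, and 3 were lower without a batch term. Notch1 lay between 78.4 and 136 CPM in LF and between 55.4 and 93.4 CPM in HF samples and fell by 0.51 ± 0.12 (log2, SE; adjusted p = 0.0139). The ligand Dll1 fell by 0.55 ± 0.13 (adjusted p = 0.0136), and Dll4 (-0.41) and the coactivators Maml2 (-0.69) and Maml3 (-0.43) were the others. The target Hes1 did not pass the test (-0.25, adjusted p = 0.16), nor did Atoh1 (0.02, adjusted p = 0.913). Among 18 stem cell and Wnt target genes, 3 feedback inhibitors of Wnt signaling, Axin2 (-0.43), Rnf43 (-0.34) and Znrf3 (-0.30), were lower and Smoc2 was higher (0.29). The stem cell marker Lgr5 did not pass the test (-0.07, adjusted p = 0.698). EGF receptors and ligands had Hbegf (-0.57), Erbb2 (-0.34) and Areg (-0.27) lower and Ereg higher (0.62) of 9. With 1 library left out, the lower count ranged from 2 to 5 in the Wnt list and from 1 to 4 in the EGF list.

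Of 16 transcription factors of intestinal identity, 3 were lower, among them Klf5 (-0.33). Of 15 Hox and regional genes, Hoxb6 and Hoxb8 (-0.40) were lower. Hoxb6 lay between 21.5 and 32.9 CPM in LF and between 16.2 and 20.7 CPM in HF samples, without overlap, and fell by 0.58 ± 0.10 (log2, SE; adjusted p = 0.00528). Histone methyltransferases and demethylases were lower in 11 of 46 and higher in 1, with a median of -0.14. They included the H3K27 demethylase Kdm6b (-0.51, adjusted p = 0.0112), the H3K4 methyltransferase Setd1b (-0.50) and 4 genes of the KMT2 family, Kmt2a (-0.48), Kmt2b (-0.46), Kmt2d (-0.48) and Kmt2e (-0.32). The H3K9 methyltransferase Suv39h2 was the higher member (0.52). The count of lower genes was 7 without HF replicate 3 of batch 1, 6 without HF replicate 2 of batch 2, 4 without a batch term and 7 of 43 after removal of the length trend. Of these 43 genes, 24 lie in the longest of the 5 groups by exon length, where 12.2% of genes were called lower. Of 23 genes of DNA methylation and methyl donors, 4 were lower, including the methyltransferase Dnmt3a (-0.41, adjusted p = 0.0102), the dioxygenase Tet3 (-0.39) and the glycosylase Tdg (-0.81), and Idh1 (0.36) was higher. Splicing regulators had 3 of 16 lower, the kinases Clk1 (-0.41) and Clk4 (-0.32) and Srsf4 (-0.27). In fits without 1 library, the lower counts of the identity factors and of the DNA methylation list each ranged from 2 to 5.

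Clock genes were lower in 5 of 18 and higher in 0, with a median of -0.19 (-0.34 in batch 1 and -0.08 in batch 2). The heme receptor Nr1d1 (-0.68, adjusted p = 0.0249), the activator Rora (-0.58, adjusted p = 0.0137) and the repressors Per3 (-0.52), Per1 (-0.48) and Cry2 (-0.39) were the members called. Nr1d1 lay between 47.7 and 152 CPM in LF and between 26.4 and 90.7 CPM in HF samples, so the groups overlapped widely. The core activators Arntl (-0.03, adjusted p = 0.861) and Clock (0.08, adjusted p = 0.36) did not pass the test. The count was 3 without HF replicate 1 of batch 1, 2 without HF replicate 2 of batch 2 and 1 without a batch term. The hour of collection is not given in the sources used here.

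Immune genes within the epithelial preparation were few among those called. Of 23 inflammatory cytokines and sensors, Cxcl16 (-0.42), Nod1 (-0.36) and Nfkb2 (-0.32) were lower and 0 were higher. Of 23 interferon-stimulated genes, Rsad2, Stat2 (-0.43) and Irf7 (-0.37) were lower. Rsad2, the antiviral protein viperin, lay between 10.6 and 14.8 CPM in LF and between 5.52 and 10.3 CPM in HF samples, without overlap, and fell by 0.64 ± 0.13 (log2, SE; adjusted p = 0.00998). Of 18 genes of MHC class I and peptide loading, Tap2, a subunit of the peptide transporter, was lower, at 35.7 to 41.7 CPM in LF and 29.1 to 33.2 CPM in HF samples, again without overlap (-0.33 ± 0.05, log2 with SE; adjusted p = 0.00499). MHC class II genes were not called, and they turned with 1 library. H2-Aa was at 127 CPM in HF replicate 3 of batch 1 and at most 32.6 CPM in LF samples, and the median of the 7 tested genes was 1.89 in batch 1 and -1.28 in batch 2.

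Most markers of cells other than epithelium were low on both diets, and the few that were called were lower in HF samples. Of 16 markers of T and intraepithelial lymphocytes, 4 were lower, the chemokine Xcl1 (-0.80), Nkg7 (-0.71), the kinase Zap70 (-0.50) and the integrin Itgae (-0.32), and 0 remained without LF replicate 2 of batch 1. Their summed level was 24.0 to 51.7 CPM in LF and 22.2 to 40.9 CPM in HF samples. Of 15 fibroblast and matrix markers, Pdgfra was lower (-1.19), of 10 myeloid markers C1qc (-1.24), and of 5 tested endothelial markers Vwf (-0.48). Smooth muscle markers had a median of -0.91 over 10 genes, 0 of them called, and Myh11 lay between 0.785 and 16.2 CPM in LF and between 0.227 and 4.73 CPM in HF samples (adjusted p = 0.179). Their median was 0.03 in batch 1 and -2.23 in batch 2. The summed smooth muscle level was 121 to 172 CPM in LF and 93.0 to 128 CPM in HF samples, most of it from Mylk. Mylk lay between 102 and 131 CPM in LF and between 82.5 and 108 CPM in HF samples. Its log2 difference was -0.22 (adjusted p = 0.0327), under the 1.2-fold limit of a call. The summed fibroblast level was 39.0 to 80.9 CPM in LF and 16.9 to 73.4 CPM in HF samples. In each batch the HF library with the lowest mean of the smooth muscle and fibroblast markers, HF replicate 3 of batch 1 (-2.62 and -2.31, log2 relative to the LF mean) and HF replicate 2 of batch 2 (-3.10 and -1.59), was also the one with the highest mean of the proteasome and mitochondrial ribosomal protein lists. The part of these cells in those lists and in the falls of Acta1, Thbs1 and Cxcl12 was not tested.

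Loci of small RNAs were called in 1 direction. Of 120 tested microRNA loci, 23 were lower and 0 higher, with a median of -0.38, and of 87 small nucleolar RNAs and their hosts, 21 were lower and 0 higher, with a median of -0.30. Removal of the trend with exon length left 6 lower in each, of 118 and 85 tested. That trend was fitted on these loci too, with median exon lengths of 85 and 110 bases, so it may take out part of their own fall. The difference of Mir194-1 went from -1.42 to -1.11, while the shortest of the 5 groups of genes had a median of 0.10. How much of the fall was so removed was not tested. The microRNA count was 12 to 15 without LF replicate 3 of batch 1, without HF replicate 1 or 3 of batch 1 or without HF replicate 2 of batch 2, and the count of small nucleolar RNAs was 12 or 13 in 6 of the 14 fits without 1 library. Without a batch term 7 microRNA loci and 6 small nucleolar RNAs were lower. Reads on such loci in a total RNA library can come from host transcripts and are not a measure of the mature molecules. Mir194-1 (chr1:185313319-185313385), a locus of a microRNA found in intestine and liver, was the clearest of them. It lay between 0.395 and 0.936 CPM in LF samples and between 0.0681 and 0.338 CPM in HF samples, without overlap. The lowest HF value was close to the floor. Mir194-1 fell by 1.42 ± 0.33 (log2, SE; adjusted p = 0.0126) and kept its call in every alternative. Its mature products are shown, from RefSeq (GRCm38.p6), because the locus gives 2 arms with different seeds, bases 2 to 8 in capitals, at chr1:185313325-185313346 and chr1:185313360-185313381 on the plus strand.
mmu-miR-194-5p: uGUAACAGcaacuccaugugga
mmu-miR-194-1-3p: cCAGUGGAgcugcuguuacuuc

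Large families by symbol gave shares close to or below the background. Of 323 Zfp genes, 32 were lower (9.91%, beside 8.12% of all genes) and 4 higher, and 17 were lower without a batch term, 21 without HF replicate 3 of batch 1 and 20 without HF replicate 2 of batch 2. Of 263 solute carriers, 12 were higher and 24 lower, among them the transporter Slc4a11, which rose by 1.35 ± 0.25 (log2, SE; adjusted p = 0.00925) from a median of 0.491 to 1.39 CPM. The count of higher carriers was 5 to 7 without LF replicate 2 or 3 of batch 1, LF replicate 1 of batch 2, HF replicate 3 of batch 1 or HF replicate 2 of batch 2, and 22 without HF replicate 2 of batch 1. The count of lower carriers was 13 to 15 without HF replicate 1 or 3 of batch 1 or HF replicate 2 of batch 2. Of 45 cytochrome P450 genes, 4 were higher and 5 lower, with Cyp2c66 (0.81, adjusted p = 0.0125) the most certain and Cyp11a1 (-1.27), the first enzyme of steroid synthesis, without a call in 9 of 26 alternatives. The lower count was 0 without LF replicate 2 of batch 1, LF replicate 1 of batch 2 or HF replicate 1 of batch 1, and 8 without HF replicate 2 of batch 1. In 8 further fits without 1 library it was 1 to 3, so only LF replicate 4 of each batch left it within 1.5 times. Of 32 xenobiotic enzymes, 4 were higher and 1, Fmo5 (-0.40), was lower. Rab GTPases had 4 of 51 higher and 5 lower, tripartite motif genes 1 of 46 higher and 4 lower, and autophagy and lysosome genes 1 of 29 higher, Lamp2 (0.30), and 2 lower, Ulk1 (-0.39) and Atg2a (-0.33). The count of lower Rab genes was 1 without LF replicate 2 of batch 1, HF replicate 1 of batch 1 or HF replicate 2 of batch 2, and 2 or 3 in 6 further fits without 1 library. Of 865 unnamed loci, 47 were higher and 65 lower. Without HF replicate 2 of batch 2 these counts were 15 and 27, and without LF replicate 2 or 3 or HF replicate 1 or 3 of batch 1 or LF replicate 1 or 3 of batch 2 they were 17 to 30 and 33 to 41. Without HF replicate 2 of batch 1, 108 were lower.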

How the data were processed

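Total RNA from isolated colonic epithelium was sequenced after Ribo-Zero depletion (TruSeq Stranded Total RNA). The authors deposited raw read counts per gene locus for each sample, without normalization. Per the submitters' processing notes and the study's methods, reads were trimmed with cutadapt 1.2.1, mapped to mm10 with STAR 2.5 and counted with Subread featureCounts 1.5.0-p1; how multimapping reads and strand were handled is not given in the sources used here, so reads of overlapping or antisense genes and of near-identical copies cannot be told apart.

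Counts of 8 LF and 6 HF samples were fitted with edgeR 4.0.16 (R 4.3.3) with TMM scaling, filterByExpr, batch and diet, and tested with the quasi-likelihood F test. A call needed an adjusted p (Benjamini-Hochberg) below 0.05 together with a fold over 1.2. Alternatives used DESeq2 1.42.0, which the authors used, limma 3.58.1 (voom), other scalings and filters, each batch alone, no batch term, a replicate block and each library left out; 2 were added after seeing the data, the removal of the trend with exon length (GENCODE M21) and the removal of Rmrp and Rpph1. The scripts were tested on simulated data. Same-numbered samples did not pair: the correlations of their deviations lay between -0.22 and 0.13 for HF and LF samples of a batch, and between -0.32 and 0.19 for samples of a diet across the batches.

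Genes were named by rule: among called genes of at least 1 CPM with the same sign in both batches, the 15 largest rises and 15 largest falls and the 5 smallest p in each direction, then the 3 largest called members of each of 70 gene lists and the defining markers of cell types. A few genes that the rule named are not reported here, though they stay in the counts. Members and lists were chosen with earlier results of these data known. Lists are described by counts and medians, with no set test. Depth was 29189922 to 65320947 counts per sample, so 3 counts lie at 0.0459 to 0.103 CPM.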

Additional observations from a re-analysis of the deposited data

Results flagged for a closer look

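Of 104 sets of values of 1 diet group that were examined, 34 genes among them, 16 held a sample farther from the others than Dixon's 95% value allows. Chance gives about 5% for sets not picked by their values, and that rate does not apply to genes named for large differences, as many of these were. Of these, 13 were in HF samples, and 9 of the 13 were at HF replicate 3 of batch 1. In that library Chac1 was at 14.8 CPM (other HF samples 0.690 to 2.01), Slc7a11 at 38.0 CPM (4.05 to 7.56), Psat1 at 33.4 CPM (4.48 to 11), Mthfd2 at 44.0 CPM (7 to 12), Slpi at 9.04 CPM (1.21 to 2.99), Aldh1a3 at 5.09 CPM (0.829 to 2.06), Slc6a19 at 14.9 CPM (1.74 to 3.67) and AI747448 at 21.4 CPM (3.71 to 10.1), each the highest of the 6. The same library had the lowest sum of endothelial markers, 8.56 CPM (14.6 to 16.7).

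HF replicate 2 of batch 2 was the highest for Reg4, at 1046 CPM (277 to 456), and for Pla2g2a, at 5.34 CPM (1.85 to 2.54). HF replicate 2 of batch 1 was the lowest for the share of counts on cytosolic ribosomal protein genes, at 2.55% (3.36% to 3.82%), and for the sum of epithelial defining markers, at 12930 CPM (14170 to 14900). Among LF samples, Lyz1 was at 1.21 CPM in replicate 3 of batch 1 (0.568 to 0.800), Cdk14 at 8.10 CPM in replicate 2 of batch 1 (2.62 to 3.92) and the sum of erythrocyte markers at 3.59 CPM in replicate 1 of batch 1 (0.159 to 1.32). The HF values of Lyz1 lay above, and those of Cdk14 below, all LF values with these samples included.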

How the results depend on the processing

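Of 2470 genes called, 1326 were higher and 1144 lower. No fold threshold gave 2051 higher genes, and no batch term gave 981 called, 508 higher and 473 lower. With each library left out in turn, 1324 to 3517 genes were called, 686 to 1834 higher and 638 to 1683 lower. Batch 1 alone, with 0 calls, gave 9 with no low count filter, 449 in DESeq2, 2 with a replicate block and 0 to 883 with a library left out. Batch 2 alone, with 1108, gave 1991 in DESeq2, 3193 with a replicate block and 15 to 2918 with a library left out. The difference between the batches had 0 to 1 calls with a library left out. The causes of these changes were not tested. A replicate block over both batches gave 3185 calls, 1739 higher and 1446 lower, but same-numbered samples share only a number. Other scalings, filters and tests, all 23 samples in the fit, and counts of same-numbered samples summed over batches left the total between 2304 and 2759. The exon length trend removed left 1923, and Rmrp and Rpph1 left out 2429.

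For 237 named genes, 6358 values under alternatives were computed, of which 5825 kept their side of the threshold, 508 lost a call, 25 gained a call and 0 changed sign while called. Of 21 counts of 3 or 4 list members called in a direction, 14 moved by more than 1.5 times when some single library was left out. The planned removal of Rn45s was not run, since that gene is not among the file's genes. At this depth genes under 0.103 CPM are not resolved, and precision is limited by 6 and 8 samples.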
